A study of Mus musculus with 6 samples.

Results

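Genes of the cell cycle and of DNA replication were followed in mouse peritoneal macrophages exposed to a Toll-like receptor ligand. The members were 38 genes named for their textbook roles: 14 replication genes, 12 cyclins and cyclin-dependent kinases, 9 mitosis and proliferation markers and 3 E2F transcription factors. For 37 of them at least 1 array probe was annotated to that gene alone, among 19935 genes so measured. The exception, the mitotic cyclin gene Ccnb1, was not analysed here. Of the 37, 33 had 1 probe and 4 (Pcna, Tk1, Top2a and E2f3) had more and were given the mean of their probes.

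The cells were cultured peritoneal macrophages, phagocytes of the abdominal cavity, from C57BL/6 mice, a common inbred strain. They received 2 ug/mL poly I:C, a mimic of viral double-stranded RNA that TLR3 senses, for 24 h, or 1 ug/mL PAM, a lipopeptide that TLR2 recognises, for 24 h, or were left untreated as controls. Each of the 3 groups held 2 arrays, and the study asked which genes the TLR3 ligand raises and the TLR2 ligand lowers. The 2 PAM samples carry different compound names in their labels, PAMCSK3 and PAMCSK4, no culture time is given for untreated cells, and separate animals or cultures are stated for no group. What the p-values weigh is thus the spread among the arrays at hand, and that spread may be technical.

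A dividing cell commits in G1, copies its DNA in S phase and separates the copies in mitosis. D cyclins with Cdk4 and Cdk6, and then cyclin E with Cdk2, phosphorylate the retinoblastoma protein and its relatives, which frees E2F factors to switch on genes for replication. The MCM proteins form the replicative helicase that is loaded on origins, while genes of mitosis are switched on later, many through paired CCAAT and CHR promoter elements. Most resident peritoneal macrophages rest outside the cycle, although they can divide within the tissue.

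Expression is given as a log2 value relative to the median of that probe over the 6 arrays, as deposited. A value of 0 marks only the middle of the arrays, and the values hold no signal level, so no gene can be ranked against another by level. Differences between groups are log2 differences ± SE from limma (n = 2 arrays per group), with p-values adjusted over all 19935 genes and a threshold of 0.05. "Rose" and "fell" are used of differences that passed it. Differences between the ligands are poly I:C minus PAM. The log base was taken as 2.

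The numeric steps of the deposited values were used to infer which probes had stood at 8 or more on every array ahead of the centring. The inference may err for a single probe, and 2.61% of 1035 olfactory receptor probes passed it. By this reading the level was reached by 29.8% of all genes and by 10 of the 37 members. They were Mcm3, Mcm6, Cdt1, Pcna, Rrm1, Ccnd2, Cdk4, Cdk6, Cdk2 and E2f1. None of the 9 mitosis markers and none of the 3 measured genes for A and B cyclins and Cdk1 reached it. Of 8 macrophage markers 7 did so, among them Adgre1, Csf1r and Lyz2, and Gata6 did not. Markers of B cells (0 of 4), T and NK cells (0 of 6), neutrophils (0 of 6) and mast cells (0 of 4) did not reach it. Of 10 mesothelial and fibroblast markers 5 reached it, which were Col1a1, Col1a2, Col3a1, Pdgfra and Dcn.

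Promoter sequences were read for 31 of the 38 members from RefSeq (GRCm38.p6), as windows of 250 bases before to 50 bases after each annotated start. Both strands were searched for exact matches to the E2F site (TTTCGCGC or TTTGGCGC), a shorter E2F core (GCGGGAA), the CCAAT box (CCAAT) and the CHR element (TTTGAA). The 160 bases before the start are shown for 7 members to set beside their responses described in the following paragraphs: 2 helicase genes that parted between the ligands, 2 genes of the replication machinery that fell with both, Cdk1, and the markers Mki67 and Ccne1, which rose with different ligands. Each is written 5′ to 3′ on the strand of the gene, and capitals mark matches to any of the motifs on either strand.
Mcm6, chr1:128359706-128359865, - strand: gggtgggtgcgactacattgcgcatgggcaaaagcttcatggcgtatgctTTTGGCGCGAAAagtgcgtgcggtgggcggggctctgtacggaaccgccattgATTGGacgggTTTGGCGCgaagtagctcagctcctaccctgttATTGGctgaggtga
Mcm5, chr8:75109349-75109508, + strand: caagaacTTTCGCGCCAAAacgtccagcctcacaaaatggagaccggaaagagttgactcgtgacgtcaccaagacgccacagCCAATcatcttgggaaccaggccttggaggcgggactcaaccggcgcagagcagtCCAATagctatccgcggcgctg
Rrm1, chr7:102441535-102441694, + strand: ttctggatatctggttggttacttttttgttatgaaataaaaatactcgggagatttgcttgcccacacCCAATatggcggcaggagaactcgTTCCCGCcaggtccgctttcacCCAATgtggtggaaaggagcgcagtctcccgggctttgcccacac
Pcna, chr2:132253181-132253340, - strand: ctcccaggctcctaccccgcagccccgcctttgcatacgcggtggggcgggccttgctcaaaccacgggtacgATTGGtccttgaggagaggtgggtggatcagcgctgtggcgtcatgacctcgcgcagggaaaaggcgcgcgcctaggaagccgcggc
Cdk1, chr10:69352913-69353072, - strand: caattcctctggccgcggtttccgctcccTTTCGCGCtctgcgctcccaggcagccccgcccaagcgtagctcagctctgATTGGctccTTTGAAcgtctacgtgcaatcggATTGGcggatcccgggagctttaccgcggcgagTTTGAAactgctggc
Mki67, chr7:135716380-135716539, - strand: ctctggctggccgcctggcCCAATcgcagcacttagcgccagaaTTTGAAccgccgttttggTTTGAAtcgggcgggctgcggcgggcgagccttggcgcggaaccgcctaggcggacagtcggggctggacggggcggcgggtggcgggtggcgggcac
Ccne1, chr7:38107491-38107650, - strand: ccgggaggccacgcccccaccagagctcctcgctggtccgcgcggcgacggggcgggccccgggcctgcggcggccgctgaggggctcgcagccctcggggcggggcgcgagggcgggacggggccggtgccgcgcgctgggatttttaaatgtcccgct

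The E2F site occurred in 7 of 35 member windows (20%), against 0.813% of 32851 windows of all genes, and its holders were Mcm3, Mcm5, Mcm6, Mcm7, Cdt1, Cdk1 and E2f2. In Mcm6 and in Mcm5 2 matches on opposite strands overlapped by 4 bases, at positions -110 and -106 in Mcm6 and -153 and -149 in Mcm5, and Mcm6 held a further one at -47. The E2F core was found in 22.9% of member windows and 4.6% of all windows, the CCAAT box in 68.6% and 37.4%, and the CHR element in 31.4% and 17.9%. Mki67 had 2 CHR matches, at -116 and -98, and Cdk1 had 2, at -71 and -15. None of the motifs was in the window of Ccne1, and that of Pcna held 1 CCAAT box. Calls differed among the genes with an E2F site: Mcm6 rose with poly I:C and fell with PAM, while Mcm3 fell with poly I:C and Cdt1 fell with PAM.

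**Figure D1:**
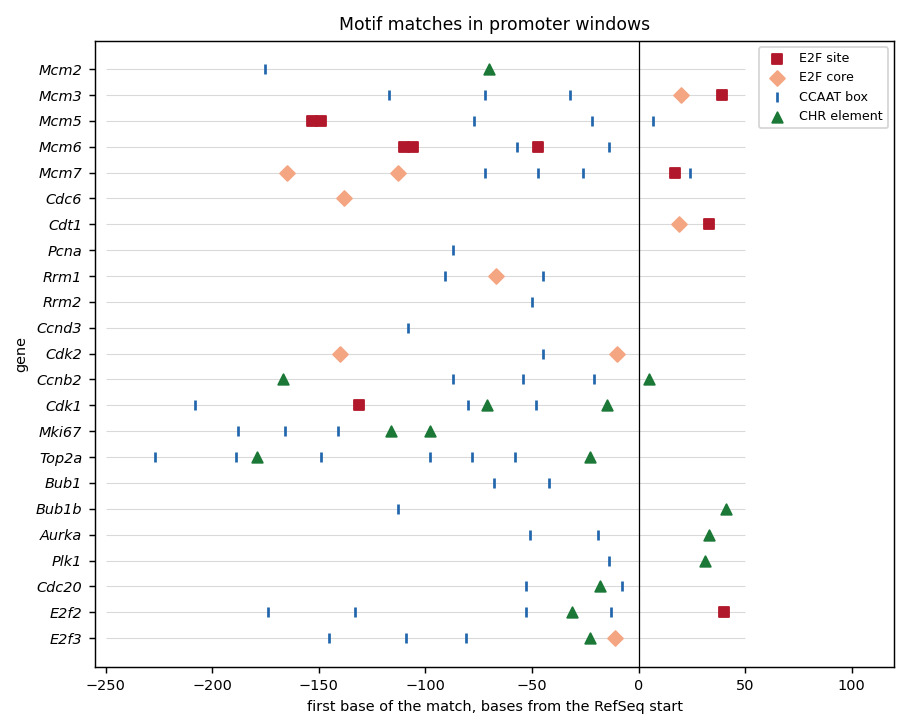
Positions of motif matches in the promoter windows of measured members that held any, as bases from the RefSeq start (x axis, 0 at the start) for each gene (y axis); matches on both strands and, for genes with 2 annotated starts, in both windows are drawn together. E2F sites (red squares) lie in 7 genes, and CHR elements (green triangles) lie in Mki67, Top2a, Bub1b, Aurka, Plk1 and Cdc20 among others.

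Of the 37 members, 5 rose and 11 fell with poly I:C, a share called of 43.2% against 30.4% of all genes. With PAM 4 rose and 15 fell, 51.4% against 25% of all genes. The median log2 difference was -0.16 with poly I:C and -0.15 with PAM, where the medians of all genes were 0.01 and 0.00. In bulk RNA fewer cells of a type and less RNA per cell cannot be told apart. Between the ligands 11 members passed with a positive difference and 4 with a negative one, 40.5% against 28.7% of all genes (12.9% positive, 15.8% negative). Among all genes 12.1% rose and 18.2% fell with poly I:C, and 11% rose and 14% fell with PAM. Most changes were small: at least 1.5-fold changes were passed by 4 members with poly I:C, 4 with PAM and 6 between the ligands. Of all genes 11.3%, 9.22% and 11.1% passed that cut. Against untreated cells the member shares at that cut were thus close to those of all genes. The count of 16 with poly I:C was smaller without control replicate 2, without poly I:C replicate 1 and without poly I:C replicate 2. In those fits the share of members passing was close to that of all genes. Both comparisons use the same 2 untreated arrays, so their counts are not independent of each other.

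**Figure D2:**
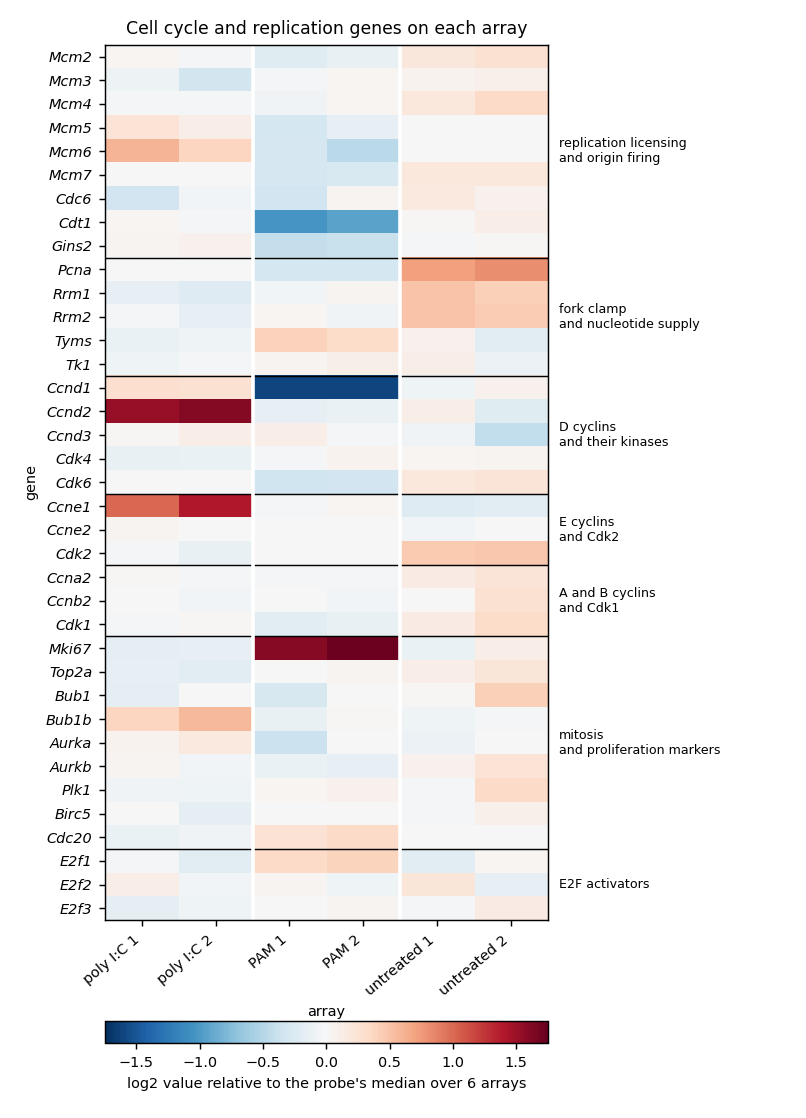
Log2 values of the 37 measured members (rows, by role) on the 6 arrays (columns: poly I:C, PAM, untreated), with colour as the value relative to the probe's median over the arrays. Pcna, Rrm1, Rrm2 and Cdk2 are highest on both untreated arrays, Ccnd2 and Ccne1 on both poly I:C arrays and Mki67 on both PAM arrays, and Ccnd1 and Cdt1 are lowest on both PAM arrays.

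Of the 9 genes of replication licensing and origin firing, 4 fell and 1 rose with poly I:C (median -0.19), and 6 fell with PAM (median -0.38), the other 3 not passing. The shares called were 55.6% and 66.7%, against 30.4% and 25% of all genes. Between the ligands 5 of the 9 passed, all with a positive difference (median over the 9, 0.27). That was 55.6%, against 28.7% of all genes. Cdt1 and Gins2 fell with PAM alone by these calls, and Mcm6 moved in opposite directions.

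Cdt1 encodes the factor that, with Cdc6, loads the MCM helicase on origins. Its values were 0.04 and -0.02 with poly I:C, -1.03 and -0.93 with PAM, and 0.02 and 0.12 in untreated cells. The PAM arrays lay far below the other 4, which overlapped. Cdt1 fell by 1.05 ± 0.07 on the log2 scale with PAM, which is 2.07-fold (adjusted p = 5.99e-06), and differed by -0.06 ± 0.07 with poly I:C (adjusted p = 0.645). The ligands differed by 0.99 ± 0.07 (adjusted p = 6.9e-06). Cdc6 differed by -0.31 ± 0.13 and -0.26 ± 0.13 and passed in neither.

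Mcm6, a helicase subunit with E2F sites in the window above, had values of 0.59 and 0.37 with poly I:C, -0.30 and -0.47 with PAM, and 0.00 and 0.00 in untreated cells. The 3 groups did not overlap, with untreated cells in the middle. It rose by 0.48 ± 0.09 with poly I:C (adjusted p = 0.00351) and fell with PAM (-0.38 ± 0.09, adjusted p = 0.0136), and the ligands differed by 0.86 ± 0.09, or 1.82-fold (adjusted p = 9.33e-05). The PAM call ended without PAM replicate 2, where the difference was -0.30. Mcm5, another subunit whose window holds overlapping E2F sites, had 0.24 and 0.11 with poly I:C, -0.31 and -0.14 with PAM, and 0.00 and 0.00 in untreated cells. Its order of groups was that of Mcm6. Neither ligand passed against untreated cells (0.18, adjusted p = 0.143, and -0.23, adjusted p = 0.074, each ± 0.08), while the ligands differed by 0.40 ± 0.08 (adjusted p = 0.00423).

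The other MCM subunits were lower in treated cells by small amounts. Mcm7 stood at 0.00 and 0.00 with poly I:C, -0.29 and -0.26 with PAM, and 0.18 and 0.19 in untreated cells, and Mcm2 at 0.03 and -0.03 with poly I:C, -0.21 and -0.13 with PAM, and 0.20 and 0.27 in untreated cells. In both, the 3 groups were apart, with PAM lowest. With PAM Mcm7 fell by 0.46 ± 0.06 (adjusted p = 0.000528) and Mcm2 by 0.40 ± 0.07 (adjusted p = 0.0022). With poly I:C Mcm7 fell by 0.19 ± 0.06 (adjusted p = 0.0493) and Mcm2 by 0.23 ± 0.07 (adjusted p = 0.0311). Mcm7 also differed between the ligands (0.27 ± 0.06, adjusted p = 0.00919), a call that ended without poly I:C replicate 2 and without PAM replicate 1.

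Mcm4 stood at -0.04 and -0.03 with poly I:C, -0.06 and 0.03 with PAM, and 0.18 and 0.33 in untreated cells. Both ligands left it below the untreated arrays by a similar amount, -0.29 ± 0.07 (adjusted p = 0.0161) and -0.27 ± 0.07 (adjusted p = 0.0293), and the difference between them was -0.02 ± 0.07. Mcm3 stood at -0.09 and -0.32 with poly I:C, -0.03 and 0.03 with PAM, and 0.06 and 0.09 in untreated cells. The poly I:C arrays were lowest. It fell with poly I:C (-0.28 ± 0.08, adjusted p = 0.0351), and its PAM difference of -0.07 did not pass. Gins2, a subunit of the GINS complex that activates the helicase, stood at 0.05 and 0.07 with poly I:C, -0.42 and -0.39 with PAM, and -0.02 and 0.02 in untreated cells. Like Cdt1, it was low on the PAM arrays alone, with a fall of 0.41 ± 0.06 (adjusted p = 0.00123) and a poly I:C difference of 0.06. The PAM call of Mcm4 ended in 6 of 12 alternative fits. Of the 4 poly I:C calls among these MCM genes, that of Mcm7 ended in 11 of 12 fits, array centring and robust variance among them. Mcm3 lost its poly I:C call in 6 of 13 fits, and Mcm2 and Mcm4 each lost theirs in 3 of 12. Without control replicate 2 none of the 4 passed with poly I:C, and Mcm2 stood at -0.20 and Mcm7 at -0.18. Without poly I:C replicate 2 the difference of Mcm3 was -0.16.

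Of the 5 genes for the replication clamp and for nucleotide supply, 3 fell with both ligands. In either direction 60% passed with poly I:C and 80% with PAM, against 30.4% and 25% of all genes. Pcna encodes the sliding clamp that tethers DNA polymerase. Its values were 0.00 and 0.00 with poly I:C, -0.31 and -0.31 with PAM, and 0.72 and 0.82 in untreated cells. Every treated array lay below every untreated one, and the PAM arrays lay lowest. It fell by 0.77 ± 0.07 on the log2 scale with poly I:C (1.71-fold, adjusted p = 2.24e-05) and by 1.08 ± 0.07 with PAM (2.11-fold, adjusted p = 2.87e-06). The ligands differed by 0.31 ± 0.07 (adjusted p = 0.00629). Its 2 probes, taken alone, gave -0.78 and -0.77 with poly I:C and -1.08 and -1.08 with PAM.

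Rrm1 and Rrm2 encode the large and small subunits of ribonucleotide reductase, which makes deoxyribonucleotides. Rrm1 stood at -0.15 and -0.22 with poly I:C, -0.05 and 0.05 with PAM, and 0.50 and 0.42 in untreated cells. Rrm2 stood at -0.04 and -0.15 with poly I:C, 0.04 and -0.06 with PAM, and 0.50 and 0.44 in untreated cells. Both subunits were highest on the untreated arrays without overlap. Rrm1 fell by 0.65 ± 0.07 with poly I:C (adjusted p = 0.00011) and by 0.46 ± 0.07 with PAM (adjusted p = 0.00116), and Rrm2 fell by 0.56 ± 0.07 (adjusted p = 0.000314) and by 0.48 ± 0.07 (adjusted p = 0.000995). Neither differed between the ligands past the threshold (-0.19 ± 0.07 and -0.08 ± 0.07).

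Tyms, thymidylate synthase, moved otherwise. It stood at -0.11 and -0.07 with poly I:C, 0.41 and 0.32 with PAM, and 0.07 and -0.19 in untreated cells, so that only the PAM arrays were above the rest. Tyms rose by 0.42 ± 0.09 with PAM (adjusted p = 0.00819), a call that ended without PAM replicate 1, and differed by -0.03 ± 0.09 with poly I:C (adjusted p = 0.853). The ligands differed by -0.45 ± 0.09 (adjusted p = 0.00455). Tk1, the thymidine kinase of the salvage pathway, differed by -0.06 ± 0.08 and 0.07 ± 0.08 and did not pass.

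**Figure D3:**
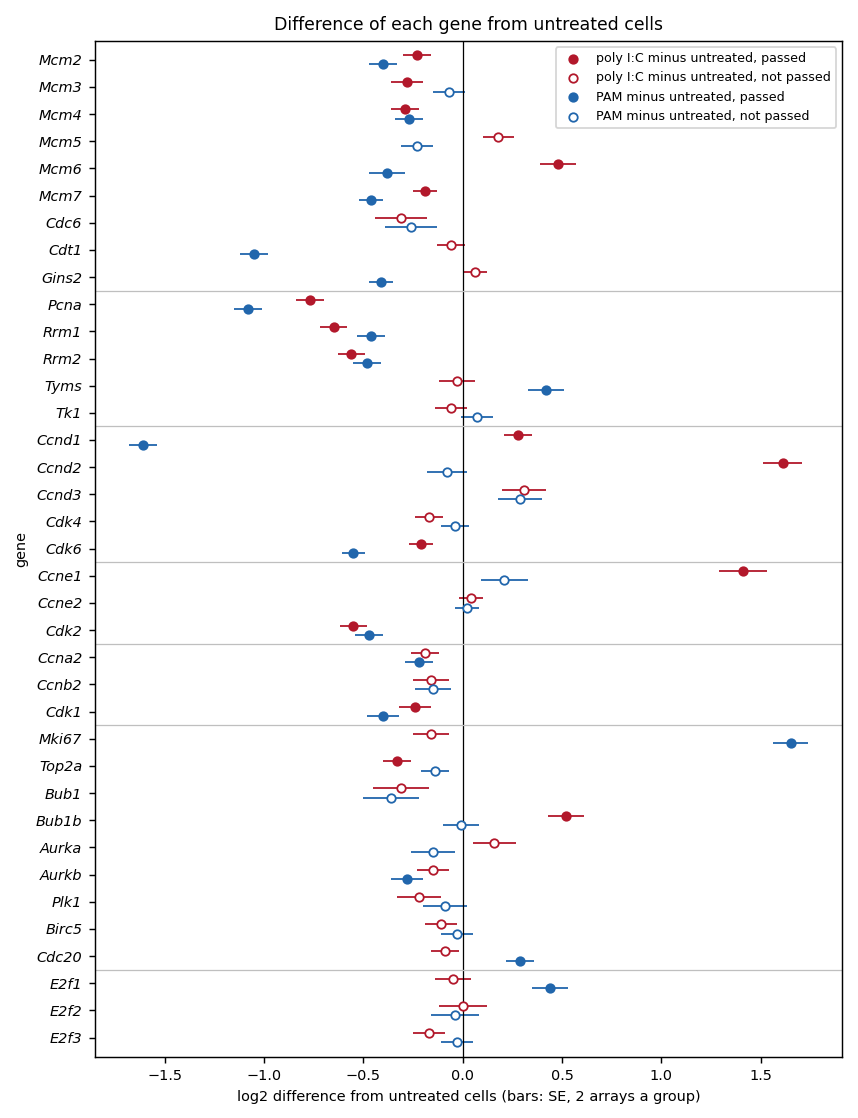
Log2 difference from untreated cells (x axis) of each of the 37 members (y axis) with poly I:C (red) and PAM (blue), bars being SE from limma with 2 arrays a group and filled points those past the threshold. Pcna, Rrm1, Rrm2 and Cdk2 lie left of 0 with both ligands, Ccnd2 (1.61) and Ccne1 (1.41) far right with poly I:C, Mki67 (1.65) far right with PAM, and Ccnd1 (-1.61) far left with PAM.

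The largest differences among the members were those of G1 cyclins and of Mki67. The 3 D cyclins, which receive growth factor signals and activate Cdk4 and Cdk6, had different calls. Ccnd1 stood at 0.29 and 0.26 with poly I:C, -1.61 and -1.61 with PAM, and -0.07 and 0.07 in untreated cells. It was lowest on the PAM arrays and highest on the poly I:C arrays, with no overlap. With PAM it fell by 1.61 ± 0.07 on the log2 scale, which is 3.05-fold (adjusted p = 3.73e-07). With poly I:C it rose by 0.28 ± 0.07 (adjusted p = 0.0159), and that small call ended without control replicate 1 (0.21) and without either poly I:C replicate. The ligands differed by 1.89 ± 0.07, or 3.7-fold (adjusted p = 1.03e-07).

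Ccnd2 stood at 1.53 and 1.60 with poly I:C, -0.14 and -0.11 with PAM, and 0.11 and -0.21 in untreated cells. Only the poly I:C arrays were apart, and PAM and untreated arrays overlapped. It rose by 1.61 ± 0.10 with poly I:C, which is 3.06-fold (adjusted p = 3e-06), and differed by -0.08 ± 0.10 with PAM. The difference between the ligands was 1.69 ± 0.10 (adjusted p = 1.97e-06). Ccnd3 differed by 0.31 ± 0.11 and 0.29 ± 0.11 without passing, its untreated arrays standing at -0.06 and -0.43.

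The D cyclin partners showed smaller values. Cdk6 stood at 0.00 and 0.00 with poly I:C, -0.35 and -0.33 with PAM, and 0.19 and 0.22 in untreated cells. The groups were apart, in the order seen for Mcm7. It fell by 0.55 ± 0.06 with PAM (adjusted p = 0.000171) and by 0.21 ± 0.06 with poly I:C (adjusted p = 0.0318, lost without any 1 of the arrays), and the ligands differed by 0.34 ± 0.06 (adjusted p = 0.00266). Cdk4 differed by -0.17 ± 0.07 and -0.04 ± 0.07 and did not pass.

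Ccne1, the cyclin E gene that drives entry into S phase, stood at 1.00 and 1.40 with poly I:C, -0.03 and 0.03 with PAM, and -0.23 and -0.18 in untreated cells. The poly I:C arrays stood well above all others. It rose by 1.41 ± 0.12 (2.66-fold, adjusted p = 1.74e-05) with poly I:C, and differed by 0.21 ± 0.12 with PAM (adjusted p = 0.268). The ligands differed by 1.20 ± 0.12 (adjusted p = 4.68e-05). Its paralog Ccne2 differed by 0.04 ± 0.06 and 0.02 ± 0.06. Cdk2, the kinase that cyclin E activates, stood at -0.04 and -0.13 with poly I:C, 0.00 and 0.00 with PAM, and 0.46 and 0.47 in untreated cells. Unlike Ccne1, it was lower in treated cells, falling by 0.55 ± 0.07 with poly I:C (adjusted p = 0.000173) and by 0.47 ± 0.07 with PAM (adjusted p = 0.000639).

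**Figure D4:**
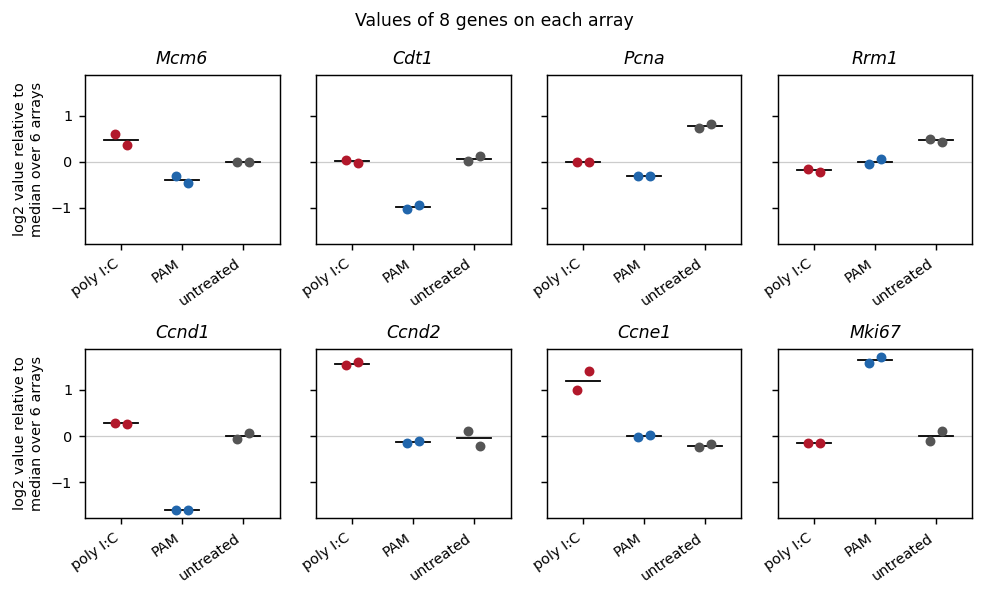
Log2 value relative to the median over the 6 arrays (y axis) of 8 members on each array (points) in poly I:C, PAM and untreated cells (x axis), with group means as lines. Mcm6 and Ccnd1 lie above untreated cells with poly I:C and below them with PAM, Pcna and Rrm1 lie below with both, and Mki67 is raised on the PAM arrays at 1.59 and 1.72.

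The cyclins and the kinase of G2 and mitosis had small differences. Of 3 measured, 1 fell with poly I:C and 2 with PAM, and 0 of 3 passed between the ligands by limma (0 at an unadjusted p under 0.05). The shares called against untreated cells were 33.3% and 66.7%, where 30.4% and 25% of all genes passed. Cdk1, the mitotic kinase, stood at -0.02 and 0.02 with poly I:C, -0.19 and -0.13 with PAM, and 0.15 and 0.32 in untreated cells. The untreated arrays were highest. It fell by 0.40 ± 0.08 with PAM (adjusted p = 0.0043) and by 0.24 ± 0.08 with poly I:C (adjusted p = 0.044, lost in 6 alternatives and at -0.15 without control replicate 2). Ccna2, cyclin A of S and G2 phase, stood at 0.02 and -0.02 with poly I:C, -0.02 and -0.03 with PAM, and 0.15 and 0.23 in untreated cells. Again the untreated arrays were highest. It fell by 0.22 ± 0.07 with PAM (adjusted p = 0.0414, lost in 7 alternatives) and differed by -0.19 ± 0.07 with poly I:C. Ccnb2, a B cyclin, differed by -0.16 and -0.15, each ± 0.09, and did not pass.

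Of 9 mitosis and proliferation markers, 1 rose and 1 fell with poly I:C (median -0.15), and 2 rose and 1 fell with PAM (median -0.09). Their shares called were 22.2% and 33.3%, where those of all genes were 30.4% and 25%. Of the 14 replication genes 8 passed with poly I:C (1 higher, 7 lower, median -0.21) and 10 of 14 with PAM (1 higher, 9 lower, median -0.39). For these genes the shares called were 57.1% and 71.4%. Leaving out single arrays, untreated or treated, moved the poly I:C count of replication genes. The mitosis counts moved with both ligands, and the PAM count of replication genes changed little. Without control replicate 2, 4 of 14 replication genes and 2 of 9 mitosis markers passed with poly I:C, and without control replicate 1, 6 of 14 and 5 of 9 did. Without poly I:C replicate 2, 4 of 14 replication genes passed, and without poly I:C replicate 1, 5 of 14. With PAM the mitosis markers passed in 5 of 9 without control replicate 1 and in 2 of 9 without control replicate 2 or either PAM replicate. The cyclins and their kinases, 11 in number, had 3 higher and 3 lower with poly I:C and 5 lower with PAM. Their shares called were 54.5% and 45.5%, also above those of all genes. These sets were not tested against each other. None of the 9 mitosis markers, and 5 of the 14 replication genes, had stood at 8 or more on every array, and the part of signal level in these counts was not tested.

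Mki67 encodes the Ki-67 antigen, a coat of mitotic chromosomes used as a marker of dividing cells. It stood at -0.16 and -0.15 with poly I:C, 1.59 and 1.72 with PAM, and -0.11 and 0.11 in untreated cells. The PAM arrays stood alone, far above the other 4. It rose by 1.65 ± 0.09 with PAM, which is 3.15-fold (adjusted p = 1.09e-06), differed by -0.16 ± 0.09 with poly I:C (adjusted p = 0.235), and the ligands differed by -1.81 ± 0.09 (3.51-fold, adjusted p = 4.61e-07). Of the other 8 markers 1 rose with PAM, Cdc20, by a smaller amount. Top2a, the topoisomerase that untangles chromosomes, differed by -0.14 ± 0.07, Birc5 (survivin) by -0.03 ± 0.08, Plk1, a mitotic kinase, by -0.09 ± 0.11, and Bub1, a spindle checkpoint kinase, by -0.36 ± 0.14, and these did not pass. Without control replicate 1, Bub1 (-0.55) and Plk1 (-0.28) passed with PAM as lower. Aurkb, the chromosomal passenger kinase, stood at 0.05 and -0.05 with poly I:C, -0.11 and -0.15 with PAM, and 0.07 and 0.24 in untreated cells and fell by 0.28 ± 0.08 with PAM (adjusted p = 0.0249). That fall was lost without control replicate 2 and without either PAM replicate, and its poly I:C difference of -0.15 did not pass.

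Cdc20, which activates the anaphase-promoting complex, stood at -0.12 and -0.06 with poly I:C, 0.25 and 0.33 with PAM, and -0.01 and 0.01 in untreated cells. It was the other marker to rise with PAM (0.29 ± 0.07, adjusted p = 0.0102, lost without PAM replicate 2), and the ligands differed by -0.38 ± 0.07 (adjusted p = 0.00181). Bub1b, the checkpoint protein BubR1, stood at 0.38 and 0.57 with poly I:C, -0.13 and 0.02 with PAM, and -0.08 and -0.02 in untreated cells. Here the poly I:C arrays were high and the other groups overlapped. Bub1b rose by 0.52 ± 0.09 with poly I:C (adjusted p = 0.00137), and differed by -0.01 ± 0.09 with PAM. The ligands differed by 0.53 ± 0.09 (adjusted p = 0.00129). Top2a stood at -0.14 and -0.19 with poly I:C, -0.01 and 0.05 with PAM, and 0.12 and 0.21 in untreated cells, and fell with poly I:C (-0.33 ± 0.07, adjusted p = 0.00544). Its 2 probes differed, one at -0.57 and the other at -0.09 with poly I:C, and at -0.29 and 0.00 with PAM. In the fit with the most variable probe Top2a also passed with PAM as lower (adjusted p by limma = 0.0167). With poly I:C Plk1 (-0.22), Bub1 (-0.31), Birc5 (-0.11) and the kinase Aurka (0.16) did not pass, nor did Aurka with PAM (-0.15). Without control replicate 1, Plk1 (-0.41, adjusted p by limma = 0.00308), Bub1 (-0.51, adjusted p = 0.0102) and Mki67 (-0.26, adjusted p = 0.0392) passed with poly I:C as lower. Without PAM replicate 2, Aurka passed with PAM (-0.34) and between the ligands (0.49).

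Of the 3 activating E2F genes, 0 passed with poly I:C by limma (0 at an unadjusted p under 0.05) and 1 rose with PAM. Among all genes 30.4% passed with poly I:C and 25% with PAM. E2f1 stood at -0.04 and -0.20 with poly I:C, 0.34 and 0.39 with PAM, and -0.18 and 0.04 in untreated cells. The PAM arrays were above the other 4. E2f1 rose by 0.44 ± 0.09 with PAM (adjusted p = 0.00629), and differed by -0.05 ± 0.09 with poly I:C. The ligands differed by -0.48 ± 0.09 (adjusted p = 0.00295). E2f2 differed by 0.00 ± 0.12 and -0.04 ± 0.12, and E2f3 by -0.17 ± 0.08 and -0.03 ± 0.08. The 2 probes of E2f3 gave -0.43 and 0.09 with poly I:C, and -0.24 and 0.18 with PAM. In the fit with the most variable probe E2f3 passed as lower with both (adjusted p by limma = 0.00118 and 0.0339).

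The wider pathway was counted over further lists of genes that were not members. Of all genes 30.4% passed with poly I:C, 25% with PAM and 28.7% between the ligands. Of 6 measured inhibitors of cyclin-dependent kinases, 3 fell with each ligand and the other 3 did not pass. Cdkn1c, which encodes the inhibitor p57, stood at 0.06 and -0.06 with poly I:C, -0.88 and -0.76 with PAM, and 1.88 and 1.94 in untreated cells. It fell by 1.91 ± 0.08 with poly I:C (3.76-fold, adjusted p = 1.37e-07) and by 2.73 ± 0.08 with PAM (6.63-fold, adjusted p = 2.23e-08), both larger than the difference of any member from untreated cells. Cdkn2c fell by 0.78 and 0.61, and Cdkn1b, which encodes p27, by 0.33 and 0.33.

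Of 10 genes for pocket proteins, DP partners and other E2F factors, 2 rose and 5 fell with poly I:C, and 2 rose and 3 fell with PAM. Rb1, the retinoblastoma gene, fell by 0.95 ± 0.08 with poly I:C and by 0.59 ± 0.08 with PAM. Its relative Rbl1, which encodes p107, stood at 1.16 and 1.29 with poly I:C, -0.58 and -0.49 with PAM, and -0.02 and 0.02 in untreated cells. Like Mcm6 and Ccnd1, it lay above untreated cells with one ligand and below with the other (1.22 and -0.53, each ± 0.07), and the ligands differed by 1.76 ± 0.07 (adjusted p = 2e-07). E2f8, an E2F repressor, rose with both (0.44 and 0.84).

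Among the 8 transcription factors that control growth and the cycle, Myc stood at -1.10 and -0.97 with poly I:C, -0.12 and 0.12 with PAM, and 1.30 and 1.36 in untreated cells. Myc fell by 2.37 ± 0.09 with poly I:C (5.15-fold, adjusted p = 1.13e-07) and by 1.33 ± 0.09 with PAM (2.52-fold, adjusted p = 5.99e-06). Its binding partner Max and the competing Mxd1 rose with poly I:C (1.38 ± 0.08 and 1.59 ± 0.10) and differed by -0.07 and -0.17 with PAM without passing. Foxm1 and Mybl2, which drive genes of dividing cells, did not pass with either ligand.

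Among 38 other origin and fork genes, 7 rose and 9 fell with poly I:C and 2 rose and 14 fell with PAM. The share called was 42.1% with each ligand, against 30.4% and 25% of all genes. Between the ligands 11 passed with a positive and 5 with a negative difference. The 3 largest positive ones were Rfc3 at 1.19 ± 0.07, Rfc2 at 0.97 ± 0.06 and Rfc5 at 0.78 ± 0.10, which encode clamp loader subunits. The other clamp loader genes measured, Rfc1 (0.21, adjusted p = 0.0559) and Rfc4 (0.13, adjusted p = 0.288), did not pass between the ligands. The polymerase subunit gene Pold2 (-0.73) and the primase gene Prim1 (-0.56) were among the negative ones. Fen1, the flap endonuclease gene, fell with both (-0.53 and -0.72).

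Among 37 other mitosis genes, 2 rose and 12 fell with poly I:C and 5 rose and 10 fell with PAM. The shares called were 37.8% and 40.5%, against 30.4% and 25% of all genes. Tpx2, a spindle assembly factor, stood at 2.08 and 2.30 with poly I:C, -0.69 and -0.54 with PAM, and -0.02 and 0.02 in untreated cells. It rose by 2.19 ± 0.09 with poly I:C (adjusted p = 1.61e-07) and fell with PAM (-0.61 ± 0.09, adjusted p = 0.000822). Pttg1, securin, was the other to rise with poly I:C (1.37 ± 0.08). Cenpa, the centromeric histone, fell with both (-0.89 and -1.04), as did the kinesin gene Kif23 (-0.71 and -0.72), while the phosphatase gene Cdc25a (0.61) and the checkpoint gene Mad2l1 (0.48) rose with PAM.

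Among 11 checkpoint and damage response genes, 4 rose and 2 fell with poly I:C and 2 rose and 4 fell with PAM. Gadd45g, a stress-induced growth arrest gene, stood at 0.83 and 0.83 with poly I:C, -1.77 and -1.89 with PAM, and 0.04 and -0.04 in untreated cells, and Wee1, the kinase that restrains Cdk1, at 0.64 and 0.59 with poly I:C, -0.90 and -0.88 with PAM, and -0.03 and 0.03 in untreated cells. In both the 3 groups were apart in the same order as Ccnd1. The ligands differed 6.34-fold for Gadd45g (adjusted p = 1.46e-08) and 2.82-fold for Wee1 (adjusted p = 2.44e-07). Mdm2, which encodes the ubiquitin ligase of p53, rose with both (1.03 and 0.36). Of 21 other cyclins and cyclin-dependent kinases, 3 rose and 7 fell with poly I:C and 1 rose and 7 fell with PAM, with Cdk14 at -0.45 and -1.59 and Cdk18 at -0.83 and -1.35.

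**Figure D5:**
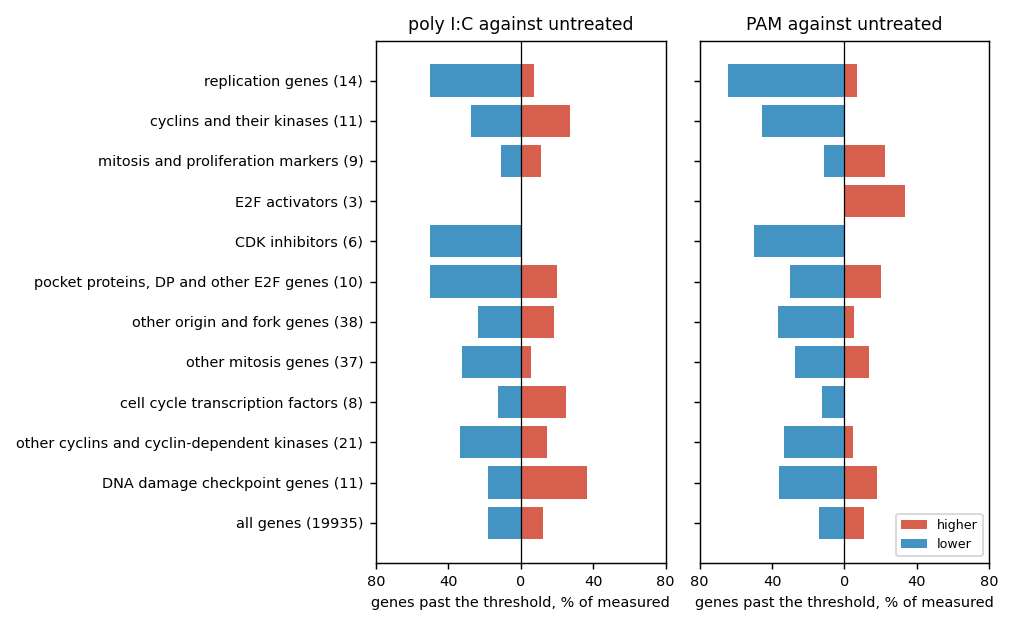
Share of measured genes past the threshold (x axis, %, higher to the right in red and lower to the left in blue) in each list (y axis, number measured in brackets) with poly I:C (left) and PAM (right) against untreated cells. Replication genes had 7 of 14 lower with poly I:C and 9 of 14 with PAM, where 18.2% and 14% of all genes were lower.

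Among 8 macrophage markers 2 rose and 3 fell with poly I:C, and 2 rose and 4 fell with PAM. Their shares called were 62.5% and 75%, against 30.4% and 25% of all genes. Some markers of other cells passed too. For mesothelial and fibroblast markers the share called was 40% with poly I:C and 30% with PAM. For B cell markers it was 50% with each ligand, and for neutrophil markers 33.3% with PAM. With poly I:C 4 of 10 mesothelial and fibroblast markers fell (Col1a1, Col3a1, Upk3b and Lum, between -0.69 and -0.23). With PAM 1 of them rose (Dcn, 0.95 ± 0.15) and 2 fell (Upk3b and Lum). Of 4 B cell markers 2 rose with each ligand, Ms4a1 (0.44 and 0.51) and Cd79b (0.36 and 0.62). Of 6 neutrophil markers 2 rose with PAM, S100a8 (2.04 ± 0.10) and Camp (0.64). The other 4, S100a9 (-0.13), Ly6g (0.05), Ltf (0.01) and Ngp (-0.05), did not pass with PAM. With poly I:C 0 of the 6 passed by limma (1 at an unadjusted p under 0.05). Of 6 T and NK cell markers 0 passed with either ligand by limma (unadjusted, 1 with poly I:C and 0 with PAM), nor did any of 4 mast cell markers (unadjusted, 1 and 1). The centred values allow no summed level of a marker list, and the part of other cells in the results was not tested.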

How the data were processed

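Per the labels' protocols, biotinylated cRNA was hybridised to Affymetrix arrays. The log2 values were used as deposited by the authors, for 28815 probes on 6 arrays. Each probe's median had been subtracted (largest remaining probe median 5e-07). No source used here states the summarization, background correction, normalization or log base, and base 2 was assumed. Array medians lay between -0.0049 and 0.0072.

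Probes with 1 symbol in the platform annotation (21780; 1605 had several, 5430 none) were averaged per gene. One mean per group was fitted over all 6 arrays with limma 3.58.1 (R 4.3.3; lmFit and eBayes without trend, 3 residual and 5.68 prior degrees of freedom), with Benjamini-Hochberg adjustment over 19935 genes. The procedure was tested on simulated data. The number of arrays limits the precision, with a median SE of 0.07. Single-precision numbers of 8 or above move in coarser steps, from which probes at that level on all arrays were inferred (tolerance 0.001 of a step). Of 206 ribosomal protein probes 94.2% passed, and of 1035 olfactory receptor probes 2.61%. A probe below that level can pass by accident. Alternatives were array centring, variance models, 4 arrays only, the replicate block, leaving out each array, the most variable probe, bright genes and stricter calls. Members and lists were chosen with earlier results of these data known. All members are named. Of other lists at most 3 genes per direction and comparison are named, those with the largest changes past the threshold. Rfc1, Rfc4, Foxm1, Mybl2 and the markers are named in addition. The 7 promoter windows were chosen after values were seen.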

Additional observations from a re-analysis of the deposited data

How the results depend on the processing

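The number of members past the threshold was 16 with poly I:C, 19 with PAM and 15 between the ligands. It stayed within 1.5 times under 9, 13 and 13 of the 15 alternatives. Leaving out 1 array gave 9 to 18, 15 to 23 and 14 to 16 members, with the lowest poly I:C counts without control replicate 2 (10), without poly I:C replicate 1 (10) and without poly I:C replicate 2 (9). Fewer genes are tested among those at 8 or above on all arrays, which left 8, 7 and 8 of 10 members, where 65.4%, 58.5% and 64.5% of all such genes passed. A minimum of 1.5-fold left 4, 4 and 6 of 37 members, where 11.3%, 9.22% and 11.1% of all genes passed. An adjusted p under 0.01 left 9 with poly I:C, 14 with PAM and 15 between the ligands. Of all genes 22.4%, 17.2% and 21.3% passed it. These stricter rules apart, 9 of 16, 13 of 19 and 14 of 15 single calls passed in every alternative fit that tested them, and no called difference changed sign in those fits. Of the differences that did not pass, 7, 8 and 4 passed in at least 1 such fit, and 4, 10 and 8 changed sign in at least 1. Whether the replicate numbers of the titles pair the samples was not settled. Over all genes the correlations of deviations were -0.01 (poly I:C and PAM), -0.07 (poly I:C and untreated) and 0.15 (PAM and untreated). Such values cannot exclude a pairing that acts on some genes. The fit with the replicate block gave 16, 19 and 16 members. These were not all the same genes: with the replicate block Bub1 passed with poly I:C (-0.31, adjusted p by limma = 0.0158) and with PAM (-0.36, adjusted p = 0.0106) and Aurka between the ligands (0.31, adjusted p = 0.0238), while Mcm7 with poly I:C (adjusted p = 0.0681) and Ccna2 with PAM (adjusted p = 0.0583) did not. Apart from the cut at 8, the centred values hold no signal level, and none over background.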
